A study of Mus musculus with 8 samples.

Results

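The genes described here are those of 9 complement components and regulators, *C1qa*, *C1qb*, *C1qc*, *C2*, *C3*, *C4b*, *Cfb*, *Cfp* and *Serping1*. They were chosen by name and not by their values, though with earlier results of these data known. Of these 9, 8 had a row among the 18635 genes of the table. All 8 had a mean over all samples of at least 10 normalized counts, which was the limit for testing. *Serping1*, the gene of the C1 inhibitor, had no row in the table used here and was not analysed.

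The study asked how PHGDH, the first enzyme of de novo serine synthesis, shapes macrophages in a tumor environment. Bone marrow-derived macrophages (BMDMs) of mice were kept for 24 h in AE17-TCM, the conditioned medium of the murine mesothelioma line AE17, which makes them tumor-educated macrophages (TEMs). The sequenced RNA came from 4 samples of TEMs with *Phgdh* fl/fl alone and 4 with *Phgdh* fl/fl *Cx3cr1*-Cre. The labels number them as replicates, and the paper calls them biologically independent samples. Both genotypes carried the floxed *Phgdh* alleles and both received AE17-TCM, and by design the groups differed in the Cre, which was expressed from the *Cx3cr1* locus. The breeding gives the *Cx3cr1*-Cre animals 1 Cre allele and 1 intact *Cx3cr1* allele, and a change that follows from the Cre allele itself cannot be told apart from one that follows from the loss of *Phgdh*. The bone marrow came from mice of 6 to 8 weeks of age. Which animals gave which sample is not given in the sources used here. If the samples of a genotype share animals or cultures, the p-values measure a spread that is partly technical.

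Complement is a cascade of plasma proteins that tags targets for uptake and inflammation. In the classical pathway, C1q, a protein of 3 kinds of chain, binds its target and activates the proteases C1r and C1s, which cleave C4 and C2 into a convertase for C3. In the alternative pathway, C3 and factor B form the convertase, and properdin stabilises it. The liver makes most of the plasma complement, but C1q comes largely from macrophages and dendritic cells, and properdin from myeloid cells. C1q is widely used as a marker of tissue-resident and tumor-associated macrophages.

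The targeted gene was checked first. *Phgdh* was at 119.0, 128.9, 116.8 and 104.9 normalized counts in *Phgdh* fl/fl TEMs and at 32.63, 35.33, 14.23 and 26.26 in *Phgdh* fl/fl *Cx3cr1*-Cre TEMs. All samples stood on the side their labels give. *Cx3cr1*, whose locus holds the Cre, fell by 0.70 on the log2 scale (limma adjusted p = 1.871e-09). A normalized count is a read count divided by the size factor of its sample, and 38219563 to 47027420 reads per sample were counted on genes. The 7 macrophage markers of the list were all present. In bulk RNA, fewer cells of a type and less RNA per cell cannot be told apart.

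All 8 genes lie on the minus strand of the mm10 genome. *C1qb* (chr4:136880129-136886187), *C1qc* (chr4:136889804-136893065) and *C1qa* (chr4:136895917-136898803) stand side by side on chromosome 4. *C4b* (chr17:34728380-34743882), *Cfb* (chr17:34856374-34862518) and *C2* (chr17:34862604-34898265) lie in the major histocompatibility region of chromosome 17, where *Cfb* and *C2* are direct neighbours. *C3* (chr17:57203970-57228136) lies elsewhere on the same chromosome and *Cfp* (chrX:20925454-20931555) on the X chromosome.

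The sequence before the start of the gene is shown for the abundant genes that had a RefSeq promoter entry, *C1qb*, *C1qc*, *C3* and *Cfp*, since those genes moved in different directions. Each is the RefSeq sequence (GRCm38.p6, the build of mm10) of the coding strand, 5′ to 3′, that ends before the annotated first exon. The positions are chr4:136886201-136886450 for *C1qb*, chr4:136893066-136893164 for *C1qc*, chr17:57228137-57228386 for *C3* and chrX:20931556-20931805 for *Cfp*. Capitals mark the letters of a searched motif on either strand.
C1qb: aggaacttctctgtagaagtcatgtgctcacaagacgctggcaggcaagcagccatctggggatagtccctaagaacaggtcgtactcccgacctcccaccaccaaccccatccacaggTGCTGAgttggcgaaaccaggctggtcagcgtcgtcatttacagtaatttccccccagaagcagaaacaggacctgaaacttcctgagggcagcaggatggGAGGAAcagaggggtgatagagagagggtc
C1qc: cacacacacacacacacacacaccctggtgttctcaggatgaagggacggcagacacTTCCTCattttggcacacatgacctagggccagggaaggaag
C3: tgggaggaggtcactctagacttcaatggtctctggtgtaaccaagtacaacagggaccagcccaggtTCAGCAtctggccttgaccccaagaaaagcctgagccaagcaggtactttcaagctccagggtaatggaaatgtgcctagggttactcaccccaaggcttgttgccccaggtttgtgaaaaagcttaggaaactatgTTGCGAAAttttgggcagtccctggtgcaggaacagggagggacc
Cfp: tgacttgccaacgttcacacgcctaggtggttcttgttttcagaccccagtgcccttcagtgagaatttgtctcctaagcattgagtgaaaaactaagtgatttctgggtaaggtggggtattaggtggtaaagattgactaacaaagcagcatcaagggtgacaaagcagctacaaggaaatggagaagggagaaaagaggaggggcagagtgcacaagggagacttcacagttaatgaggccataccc

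The motifs searched were GAGGAA for PU.1, the master factor of myeloid cells, TGCTGA for MAF factors, TTGCNNAA for C/EBP, and, by name, the interferon-stimulated response element and the NF-kappaB consensus. *C1qb* and *C1qc* each held the PU.1 letters, GAGGAA in *C1qb* at 38 bases and TTCCTC, its reverse strand, in *C1qc* at 37 bases before the first exon of the GENCODE gene. *C1qb* also held the MAF letters TGCTGA, at 139 bases. *C3* held TCAGCA, the reverse strand of the MAF letters, at 177 bases and the C/EBP match TTGCGAAA at 38 bases. No searched motif was found in the *Cfp* window, and neither the interferon element nor the NF-kappaB consensus was in any of the 4 windows. These letters are common. The PU.1 letters were in 23.3% and the C/EBP letters in 9.56% of the 250-base windows of 32851 promoters, against 9.91% for the PU.1 letters in windows of 99 bases, the length shown for *C1qc*. The MAF letters were in 16.1% of the 250-base windows, the interferon element in 2.98% and the NF-kappaB consensus in 7.25%. A match is a description of the sequence and not a binding site.

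By level per length, the genes fell into an abundant and a scarce group. *C1qb* was at 50368.3 normalized counts per kilobase of exon in *Phgdh* fl/fl TEMs and was the 24th gene of 18629 over all samples. *C1qa* followed at 28773.6 per kilobase (44th), *C1qc* at 25362.1 (52nd), *Cfp* at 8971.4 (176th) and *C3* at 5502.8 (249th). Neighbours in this order were apart by more than their spread. *C4b* at 3.641, *C2* at 3.093 and *Cfb* at 2.887 per kilobase were the 15445th, 15329th and 14132nd genes, and in *Phgdh* fl/fl TEMs those 3 were not separated by their spread. In *Phgdh* fl/fl *Cx3cr1*-Cre TEMs, *Cfb* stood at 7.991 per kilobase, above *C2* at 3.224 and *C4b* at 2.366. These macrophages held much RNA for the recognition protein of the classical pathway, for properdin and for C3, and little for the C4 and C2 that C1q acts through.

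**Figure D1:**
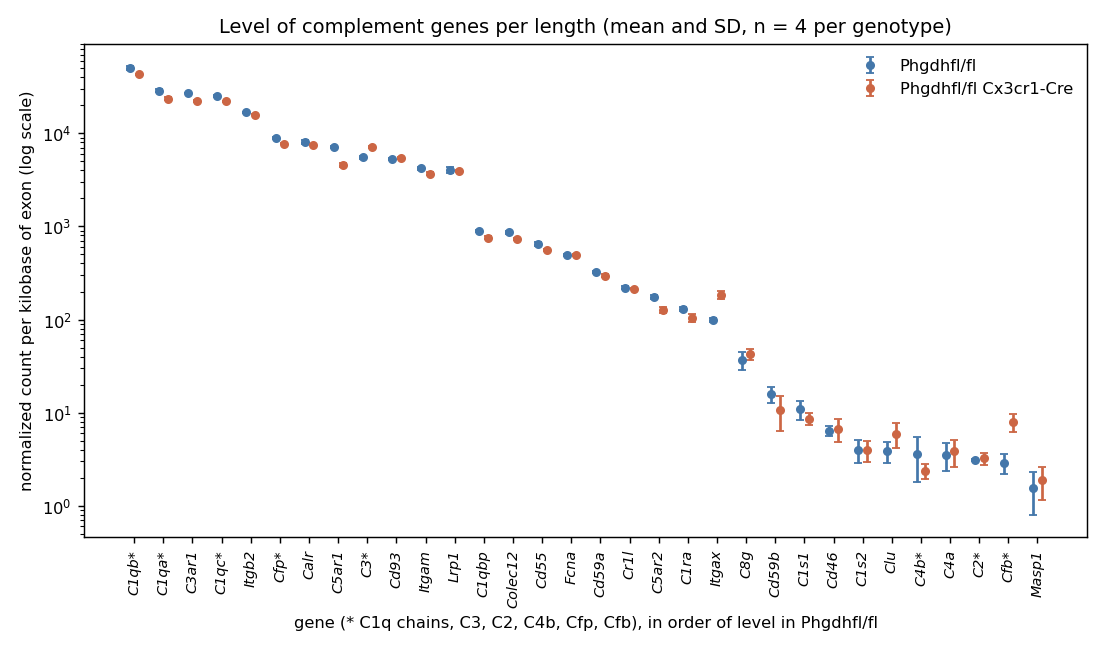
Level of complement genes that passed the limit for testing, as normalized counts per kilobase of exon on a log axis, mean and SD of 4 samples per genotype. *C1qb*, *C1qa* and *C1qc* are near the top, between 21979.0 and 50368.3, while *C2*, *C4b* and *Cfb* are below 10.

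Between the genotypes, 6 of the 8 genes changed in limma at an adjusted p under 0.05. The RNAs of the 3 C1q chains and of properdin fell by 13.3% to 18.4% of the mean, and *C3* and *Cfb* rose, to 1.287 and 2.768 times the mean of *Phgdh* fl/fl TEMs. *C2* and *C4b* did not pass, and *Cfb* met the limit for testing only through its Cre samples. Of all 13629 genes tested, 41.0% passed the same test, 20.8% higher and 20.3% lower with Cre, so 6 of 8 genes is to be read against a background in which many genes moved. That share was larger among genes with a mean of at least 50, where 5424 of 11260 passed. The 5 of these complement genes tested at that limit all passed. The median log2 fold change was -0.21 over the 8 genes and -0.0018 over all genes tested. The median of the 8 rests in part on the 3 C1q chains, neighbours on chromosome 4 that all fell, while *C3* and *Cfb* rose. None of the 8 had an absolute log2 fold change over 1.5, which 59 genes had. For the 6 genes no sample of one genotype lay within the range of the other, which held for 36.7% of all genes (18.4% higher and 18.2% lower with Cre).

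**Figure D2:**
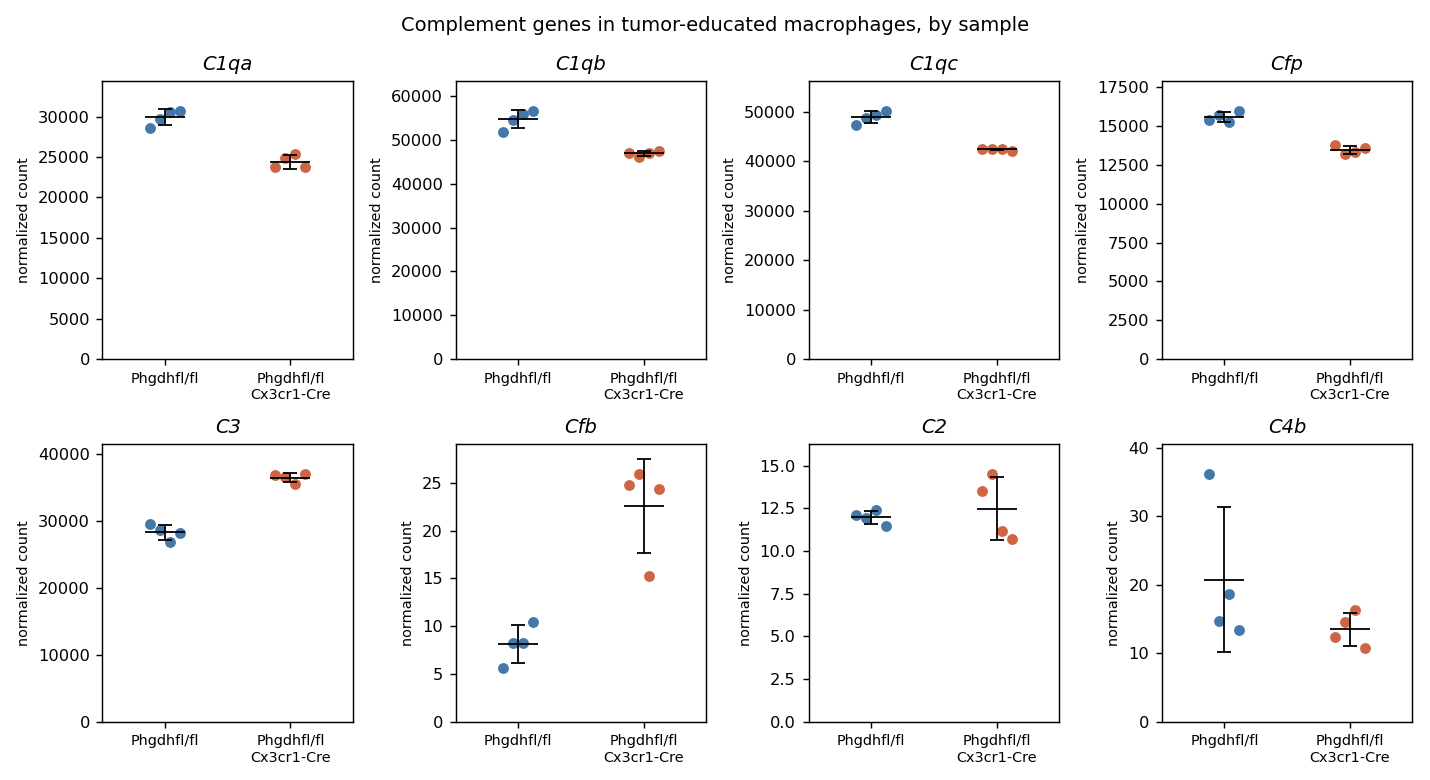
Normalized counts of the 8 complement genes in each of the 4 samples per genotype (points), with mean and SD (bars); each axis starts at 0. The genotypes do not overlap for *C1qa*, *C1qb*, *C1qc*, *Cfp*, *C3* and *Cfb*, and overlap for *C2* and *C4b*.

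*C1qa* encodes the A chain of C1q. It was at 28601.2, 29735.4, 30632.7 and 30728.8 normalized counts in *Phgdh* fl/fl TEMs and at 23718.2, 24897.4, 25365.3 and 23712.7 in *Phgdh* fl/fl *Cx3cr1*-Cre TEMs. Every Cre sample was below every sample without Cre. The mean went from 29924.5 ± 989.2 to 24423.4 ± 839.5 (SD, n = 4 each), which is a log2 fold change of -0.29 (SE 0.027, limma adjusted p = 1.993e-08) with a 95% confidence interval from -0.35 to -0.24.

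*C1qb* encodes the B chain. Its normalized counts were 51939.5, 54572.4, 56013.1 and 56677.7 without Cre and 47022.3, 46174.1, 47155.2 and 47540.1 with Cre. The samples again stood apart, and the Cre samples were closer to each other than the others. The means were 54800.7 ± 2100.2 and 46972.9 ± 576.0 (SD, n = 4 each), and the log2 fold change was -0.22 (SE 0.025, limma adjusted p = 4.447e-07).

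*C1qc* encodes the C chain, and its 4 Cre samples lay closest together among the abundant genes. It was at 47439.0, 48877.0, 49320.9 and 50259.9 normalized counts without Cre and at 42539.7, 42432.8, 42569.3 and 42224.1 with Cre. The means were 48974.2 ± 1174.7 and 42441.5 ± 156.3 (SD, n = 4 each), with a log2 fold change of -0.21 (SE 0.022, limma adjusted p = 1.512e-07). Together, the 3 chains took 0.296% to 0.317% of the reads of a sample without Cre and 0.263% to 0.269% with Cre.

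The balance of the 3 chains was compared by their ratios. The log2 ratio of *C1qa* to *C1qb* within a sample, which does not depend on the scaling of the sample, was lower by 0.071 with Cre, at -0.87 ± 0.0094 without and -0.94 ± 0.060 with Cre (SD, n = 4 each, exact two-sided permutation p = 0.0286, adjusted p = 0.0429 over 6 ratios). That p is the smallest that 70 labelings of 4 against 4 allow. The ratio of *C1qa* to *C1qc* was lower by 0.087 with the same p and adjusted p. The ratios of *Cfb* to *C3* and of *C2* to *Cfb*, given below, had that p too. The adjusted p depends on how many of the 6 ratios share the smallest p, and *Cfb* is scarce. *C1qb* to *C1qc* differed by -0.015, with overlapping samples (exact permutation p = 0.4). Within the Cre group, the ratio of *C1qa* to *C1qb* was -0.987 and -1.003 in replicates 1 and 4, and -0.891 and -0.895 in replicates 2 and 3, which lie just below the lowest sample without Cre at -0.883. The share of *C1qa* in the C1q chains per kilobase was 27.44% to 27.66% without Cre and 25.8% to 27.17% with Cre. The adjusted p of both *C1qa* ratios was above 0.05 when any 1 sample without Cre was left out, up to 0.206 for *C1qa* to *C1qb* and 0.114 for *C1qa* to *C1qc*, while their direction stayed.

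*Cfp* encodes properdin, the positive regulator of the alternative pathway. It was at 15394.3, 15686.4, 15236.7 and 15980.2 normalized counts without Cre and at 13765.1, 13224.5, 13314.5 and 13594.3 with Cre. All 4 Cre samples were below the lowest sample without Cre. The means were 15574.4 ± 328.5 and 13474.6 ± 249.6 (SD, n = 4 each), and the log2 fold change was -0.21 (SE 0.023, limma adjusted p = 2.263e-07).

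*C3*, the protein on which the pathways converge, went the other way. Its normalized counts were 29563.4, 28581.2, 26871.0 and 28187.2 without Cre and 36834.0, 36449.8, 35394.1 and 37031.7 with Cre. Each Cre sample was above each sample without Cre. The means were 28300.7 ± 1115.0 and 36427.4 ± 730.0 (SD, n = 4 each), which is a log2 fold change of 0.36 (SE 0.026, limma adjusted p = 4.422e-10) with a 95% confidence interval from 0.31 to 0.42. *C3* took 0.0619% to 0.0683% of the reads of a sample without Cre and 0.0827% to 0.0862% with Cre.

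*Cfb* encodes factor B, the protease that joins C3 in the alternative convertase, and it had the largest fold change of the 8 genes at a low level. It was at 5.578, 8.284, 8.27 and 10.49 normalized counts without Cre, which were 6, 9, 8 and 11 reads. With Cre it was at 24.75, 25.98, 15.25 and 24.31 normalized counts, or 22, 25, 15 and 25 reads. The samples did not overlap, although Cre replicate 3 was nearer to the other genotype than the rest. The mean without Cre was below the limit of 10 for testing, which *Cfb* met only through its Cre samples. The means were 8.156 ± 2.012 and 22.57 ± 4.934 (SD, n = 4 each), and the log2 fold change was 1.36 (SE 0.30, limma adjusted p = 0.001), with a 95% confidence interval from 0.73 to 1.99. *Cfb* rose more than *C3*, as the log2 ratio of *Cfb* to *C3* was higher by 1.11 with Cre (exact permutation p = 0.0286, adjusted p = 0.0429 over 6 ratios; up to 0.114 without any 1 sample lacking Cre).

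*C2*, the classical counterpart of factor B and its neighbour on chromosome 17, was at 12.09, 11.97, 12.4 and 11.45 normalized counts without Cre and at 13.5, 14.55, 11.18 and 10.7 with Cre. The samples overlapped. The log2 fold change was 0.046 (SE 0.29, limma adjusted p = 0.919) and its 95% confidence interval, from -0.56 to 0.65, leaves room for a change of either sign at this depth. The ratio of *C2* to *Cfb* was lower by 1.42 on the log2 scale with Cre (exact permutation p = 0.0286, adjusted p = 0.0429 over 6 ratios; up to 0.114 without any 1 sample lacking Cre). As *C2* did not pass, this ratio mostly restates the change of *Cfb* and is no separate support for it. *Cfb* met the limit for testing only through its Cre samples.

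*C4b*, the gene of C4, was at 36.26, 14.73, 18.61 and 13.36 normalized counts without Cre and at 12.38, 14.55, 16.27 and 10.7 with Cre. Replicate 1 without Cre stood above the rest, and the other samples of the genotypes overlapped. The log2 fold change was -0.49 (SE 0.31, limma adjusted p = 0.218, 95% confidence interval from -1.14 to 0.15) and -0.20 when replicate 1 was left out. The ratio of *C2* to *C4b* differed by 0.57 with overlapping samples (exact permutation p = 0.143, adjusted p = 0.171).

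The counts of the scarce genes carry a limit of the annotation. *Gm20547*, a protein-coding gene model on the same strand, shares 2246 exon bases with *Cfb* and 1656 with *C2*, and it had no row in the table used here. In the GENCODE transcripts, 69.9% of the 75-base stretches of *Cfb* and 37% of those of *C2* also occur in *Gm20547*, and 22.7% of those of *C4b* occur in its near copy *C4a*. *Zbtb12*, on the opposite strand, shares 161 exon bases with *C2*. The annotation and the strand setting of the counting are not given in the sources used here, so the levels of *Cfb*, *C2* and *C4b* are uncertain. *C1qa*, *C1qb*, *C1qc*, *C3* and *Cfp* shared no such stretch with another gene.

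**Figure D3:**
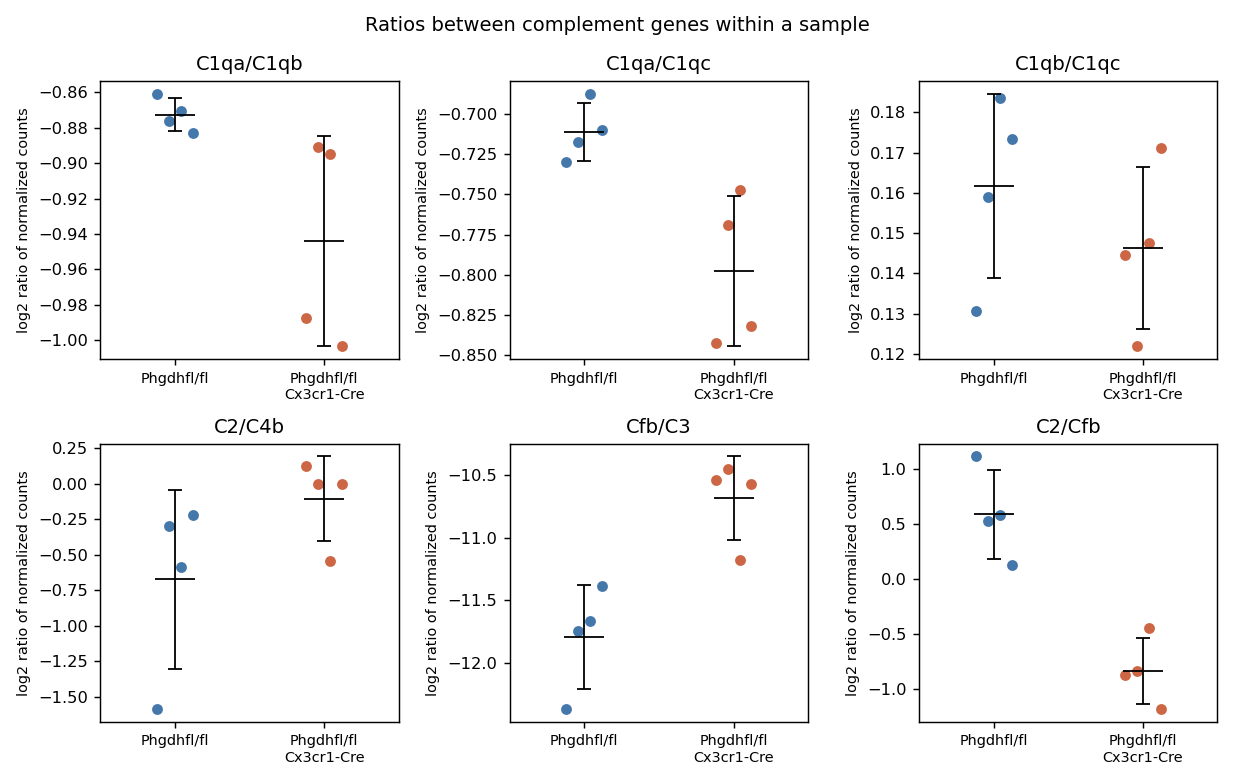
Log2 ratios of normalized counts for 6 pairs of complement genes, by sample (points), with mean and SD (bars), n = 4 per genotype. Both ratios with *C1qa* and that of *C2* to *Cfb* are lower with Cre and that of *Cfb* to *C3* is higher, without overlap, while *C1qb* to *C1qc* and *C2* to *C4b* overlap.

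Of a further 50 complement genes listed by role, 34 had a row and 25 passed the limit for testing. Of those 25, 12 changed, that is 48.0% against the 41.0% of all genes. With Cre, 11 of the 12 were lower and 1 was higher, where 20.3% of all genes tested were lower and 20.8% higher. The median log2 fold change of the 25 genes was -0.099. The genes are given by role.

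Of the classical and lectin pathway, 2 of 7 tested genes fell, a share near the 20.3% of all genes tested that were lower with Cre. *C1ra*, the protease C1r that is bound to C1q, went from 388.6 ± 18.1 to 308.6 ± 29.92 normalized counts (SD, n = 4 each, log2 fold change -0.34, limma adjusted p = 0.000648). *Colec12*, a membrane collectin, fell by 0.22 on the log2 scale. *C1s1*, *C1s2*, *Masp1*, *C4a* and *Fcna* did not pass, and *Fcna*, a ficolin at 674.9 and 680.8 normalized counts, was the only one of the 5 above 50. No gene of the terminal pathway passed, with *C8g* the 1 tested. *Cfd*, the gene of factor D, which cleaves factor B, had no row in the table used here.

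Among the membrane regulators, 1 of 5 tested genes fell, also near that 20.3%. *Cd55*, which takes C3 convertases apart on the cell surface, fell by 0.23 (limma adjusted p = 1.233e-05). *Cd59a*, a block to the membrane attack complex, had a log2 fold change of -0.12 with samples that did not overlap but an adjusted p of 0.061 in limma. *Cr1l*, the rodent regulator Crry, had -0.034, and *Cd46* and *Cd59b* were at low levels and did not pass. *Clu*, the soluble regulator clusterin, was also at a low level and did not pass.

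Among the receptors, 8 of 10 tested genes changed, 7 of them lower, where 41.0% of all genes tested changed and 20.3% were lower with Cre. Under quantile normalization *C3ar1*, *Itgb2* and *Calr* were no longer called lower, and *Cd93* was called higher. *C5ar1*, the C5a receptor, was at 17910.9, 18628.0, 18336.8 and 18537.0 normalized counts without Cre and at 12170.8, 11669.8, 12293.8 and 11161.9 with Cre (log2 fold change -0.64, SE 0.027, limma adjusted p = 1.85e-13). *C5ar2*, the second C5a receptor, fell by 0.48 (limma adjusted p = 2.05e-06). *C3ar1*, the C3a receptor, was the most abundant receptor per length and went from 116342.4 ± 365.8 to 95057.9 ± 2527.1 (SD, n = 4 each, log2 fold change -0.29, limma adjusted p = 2.308e-09), a call that quantile normalization did not keep (log2 fold change -0.057, limma adjusted p = 0.0658). The receptor for the C3 fragment was lower in samples in which *C3* itself was higher.

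The integrin receptors for C3 fragments divided. *Itgax*, the alpha chain of complement receptor 4 (CD11c), was at 513.2, 480.4, 455.9 and 458.9 normalized counts without Cre and at 960.9, 833.5, 788.9 and 937.5 with Cre, and was the single gene of the list that rose (log2 fold change 0.88, SE 0.061, limma adjusted p = 2.804e-10). *Itgam*, the alpha chain of complement receptor 3 (CD11b), fell by 0.19 and *Itgb2*, the beta chain that both receptors share, fell by 0.084. Per length, *Itgam* was above *Itgax* in both genotypes, at 4213.6 against 99.33 without Cre and 3693.9 against 183.3 normalized counts per kilobase with Cre. Among the proteins that bind C1q, *C1qbp* fell by 0.24 and *Calr*, calreticulin, fell by 0.099 with overlapping samples, while *Cd93* and *Lrp1* did not pass. Quantile normalization ended the calls of *Itgb2* and *Calr*.

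**Figure D4:**
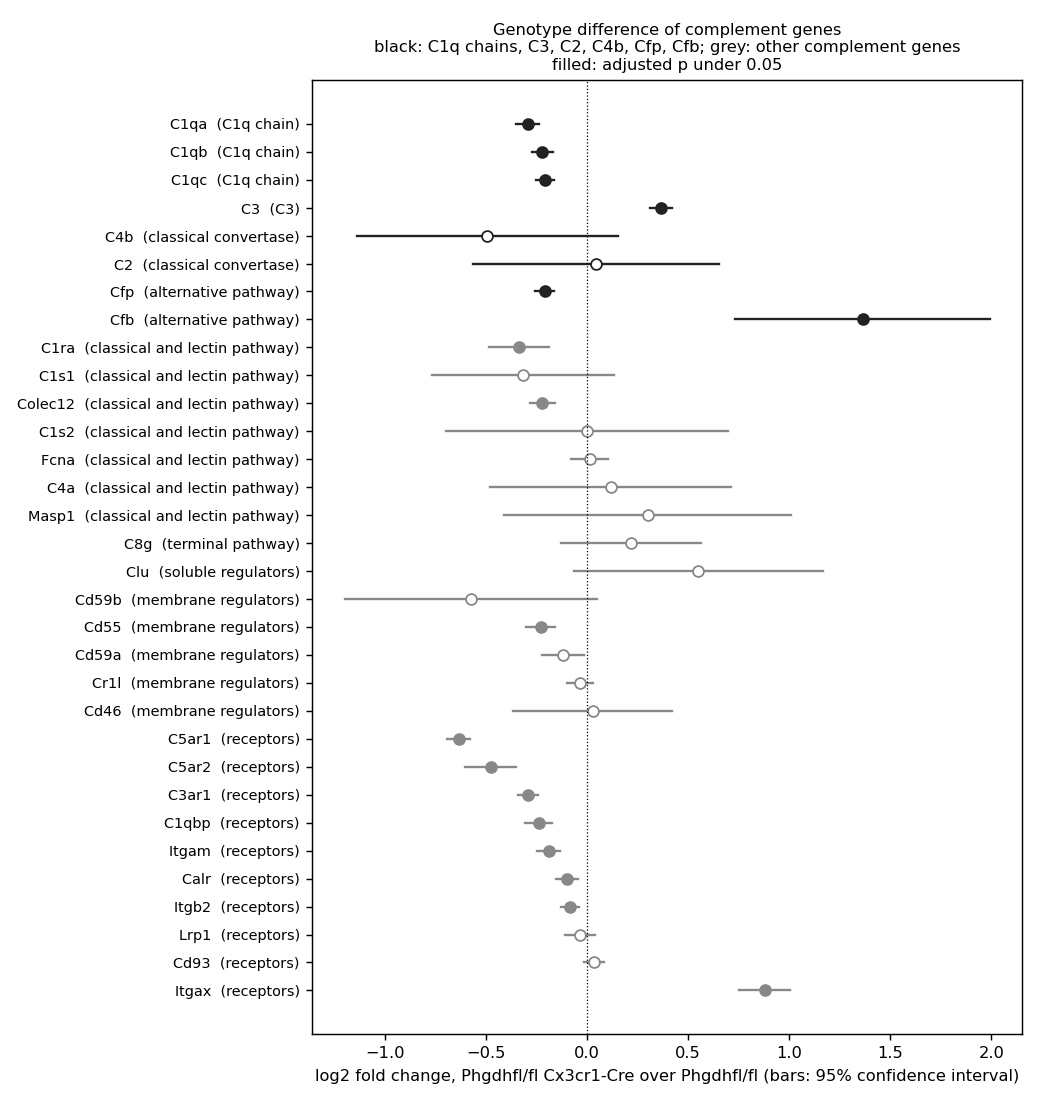
Log2 fold change of *Phgdh* fl/fl *Cx3cr1*-Cre over *Phgdh* fl/fl TEMs for complement genes tested, with 95% confidence intervals (bars), by role. Filled points passed an adjusted p under 0.05; *Itgax*, *C3* and *Cfb* are the filled points above 0.

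The genes whose values were most like those of C1q and *C3* over the 8 samples were sought among 10493 genes with a mean of at least 100 normalized counts. For the mean of the log2 values of the 3 C1q chains, they were *Arpc2* (Pearson r = 0.997), *Clec12a* (0.994), *Evi2a* (0.994), *Tmed2* (0.994) and *Rnpep* (0.993). For *C3*, they were *Uvssa* (r = 0.998), *Plxnd1* (0.997), *Cybb* (0.997), *Arap1* (0.996) and *Slamf7* (0.995). *Cybb* encodes the catalytic subunit of the phagocyte oxidase and *Slamf7* a surface receptor of the SLAM family. These correlations mostly restate the difference between 2 groups of 4 samples and are a description.

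Markers of other cells were scarce. The summed normalized counts of the 7 macrophage markers were 986516.2 to 1075524.4 without Cre and 973611.6 to 1048997.0 with Cre. *Lyz2* made up most of that sum, at 673222.7 to 757940.9 without Cre and 676391.9 to 747803.8 with Cre. Of the 7, 3 fell, where 20.3% of all genes tested were lower with Cre. These were *Fcgr1* (log2 fold change -0.4032), *Itgam* (-0.1897) and *Adgre1* (-0.08366), against -0.2931 to -0.2062 for the C1q chains. The other markers, *Csf1r*, *Cd68*, *Lyz2* and *Mertk*, did not pass, at -0.04023 to 0.02047. The C1q chains are also made by dendritic cells. The 4 of 5 dendritic cell markers with a row summed to 43.69 to 71.55 without Cre and 66.51 to 91.49 with Cre. Only 2 of them met the limit for testing, and neither was called. These were *Zbtb46* (log2 fold change 0.79, limma adjusted p = 0.0642) and *Ccr7* (0.39, limma adjusted p = 0.1315). Of 8 neutrophil markers, *S100a8* alone had a row, at 466.7 to 574.7 without Cre and 575.7 to 631.3 with Cre, and it rose. For B cells 2 of 4 markers had a row and *Cd79b* fell (sum 197.1 to 252.8 without Cre, 130.5 to 166.7 with Cre), while for T cells 1 of 4 had a row (15.8 to 16.57 and 7.876 to 26.26). Fibroblast markers, 4 of 6 with a row, summed to 22.09 to 36.18 and 19.75 to 49.6, and the 1 of 6 mesothelial or epithelial markers to at most 5.083. No mast cell, basophil or hepatocyte marker had a row. The part of these cells in the results was not tested.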

How the data were processed

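RNA of 8 samples, 4 per genotype, was sequenced from directional libraries. According to the submitters' processing notes and the study's methods, the authors aligned reads to mm10 with TopHat2, counted them per gene with HTSeq 0.6 and used DESeq2; the annotation and strand setting are not given in the sources used here. The deposited signal per gene and sample is a read count divided by a size factor, although it is called FPKM there, and 100% of 144353 values above 0 gave whole reads (within 0.1). The authors' deposited comparison columns (log2 fold change and its error, Wald score, p-value) and mean were not used.

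The samples were grouped by the genotype of their titles. Genotypes were tested with limma 3.58.1 under R 4.3.3 (eBayes with trend, two-sided, Benjamini-Hochberg over all genes) on log2(normalized count + 1), which understates changes of low genes, for genes with a mean of at least 10. Ratios and single genes were tested by exact two-sided permutation over 70 labelings. Gene positions and exon lengths came from GENCODE M21 (18629 of 18635 genes found) and promoters from RefSeq. The named genes are the 9 complement genes, *Phgdh*, *Cx3cr1*, tested genes of a list of 50 other complement genes, and the 5 most like C1q and *C3*. The result of 1 gene of that list is not reported here, though the counts include it. These genes, lists and tests were chosen with earlier results of these data known. The fits were tested on simulated data.

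Alternatives were a pseudocount of 0.1, no filter, a mean of at least 50, quantile normalization, scaling to total reads, a replicate block, eBayes without trend, omitting each sample, and, on the recovered reads, DESeq2 1.42.0 and edgeR 4.0.16 (TMM, quasi-likelihood).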

Additional observations from a re-analysis of the deposited data

Results flagged for a closer look

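In 4 of 70 sets of 4 samples of a gene and genotype, over 35 genes, 1 sample stood far from the other 3, and chance alone flags about 1 in 20 sets. *Cfb* was at 15.25 normalized counts in Cre replicate 3, with the next sample at 24.31. *C3ar1* was at 115801.9 in replicate 1 without Cre, with the next at 116477.3, a small gap in a very tight group. *Calr* was at 22173.3 in Cre replicate 1, with the next at 21617.8. *Lrp1* was at 78950.0 in replicate 1 without Cre, with the next at 69315.4. The flagged values of *C3ar1* and *Lrp1* thus came from the same sample, which also stood apart from its group over all tested genes. The chi-square per gene of the recovered reads was 5.4 to 6.2 between it and the other samples without Cre. Between those other samples it was 2.49 to 3.83. The cause was not tested.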

How the results depend on the processing

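The 6 complement genes that changed kept their direction and an adjusted p under 0.05 in every alternative in which they were tested; *Cfb*, *C2* and *C4b* were not tested at a mean of at least 50. Over all genes, the count called lay between 4930 (eBayes without trend) and 5944 (without replicate 1 lacking Cre). Some genes that did not pass changed sign. Under quantile normalization these were *C1s2* (-0.032), *Cd46* (-0.030) and *Lrp1* (0.0061), and *C1s2* was at -0.016 in DESeq2 and -0.018 in edgeR. Leaving out each sample gave ranges of -0.026 to 0.11 for *C2* (also in its permutation test), -0.16 to 0.11 for *C1s2*, -0.032 to 0.36 for *C4a*, -0.11 to 0.14 for *Cd46*, -0.0052 to 0.025 for *Fcna* and -0.054 to 0.017 for *Lrp1*. *Cd93* (0.10) passed under quantile normalization, *Cd59a* passed there and in eBayes without trend, and *Calr* did not pass in either.

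Of the 6 ratios, 4 passed, and 0 to 4 passed when each sample was left out: 0 without any 1 sample lacking Cre and 4 without any 1 Cre sample. 3 against 4 samples allow 35 labelings. The cause of the uneven loss was not tested.

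The replicate numbers of the labels carry no stated shared origin, and the deviations of samples of the same number correlated at 0.063, 0.098, 0.126 and 0.078. With a replicate block, 5597 genes were called in place of 5594, the counts of complement genes stayed at 6 and 12, and 3 ratios passed, that of *C1qa* to *C1qb* at an adjusted p of 0.134 in limma. Replicate 1 without Cre correlated best with Cre replicate 4, at 0.135. Depth limits *Cfb*, *C2* and *C4b*, with few reads per sample.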

Other observations

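Of the complement genes listed, 16 of the 50 further genes had no row in the table used here and 9 had a row below the limit for testing, among them *Vsig4* and *Cr2*, receptors for C3 fragments, at 1.484 and 0.2916 normalized counts per kilobase in *Phgdh* fl/fl TEMs.

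The share of *C1qb* in the C1q chains per kilobase was 49.08% and 49.45% in Cre replicates 1 and 4, and 48.03% and 48.28% in Cre replicates 2 and 3. Without Cre it was 47.83%, 48.2%, 48.35% and 48.38%. The difference between the Cre samples was not tested, and the labels give no grouping within the genotype.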
